A study of Mus musculus with 2 samples.

Results

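Tmem119, Olfml3, Abi3, Cyp4f18, Syngr1, Lhfpl2 and Itga6 are genes that are known from microglia, the macrophages of the brain, and that were read here in leukocytes of the mouse heart. They were chosen by symbol from the gene list of the deposited matrices, where each of the 7 matched a single row of 32286 features. Earlier results of these same libraries were known when they were chosen, including the contrast between the libraries, so the values are given as a description with no test. The study made 2 single-cell RNA libraries of viable CD45+ RFP+ cells sorted from left ventricles after bone marrow transplantation (BMT) and transverse aortic constriction (TAC), which raises the pressure load on the heart by tying down its main outflow vessel. The control library holds cells from mice given control marrow, and the LOY library holds cells from mice given LOY marrow, with LOY read as loss of the Y chromosome. Both groups had the transplant and TAC, so neither is an unoperated heart. The sort kept leukocytes that carry RFP, which by the labels derive from the transplanted marrow, so host macrophages without RFP were not sampled. Sorted cells of 3 mice were pooled for each library, which leaves 1 library per group, and no difference between the libraries has a replicate check. Age, strain and the way in which Y was lost are not given in the sources used here.

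Microglia arise from yolk sac progenitors, and their resting programme depends on TGF-beta signalling and on the transcription factors PU.1 and SALL1. Tmem119 encodes a single-pass membrane protein that is widely used as a marker to tell microglia from blood-derived macrophages, and it is also known from bone-forming cells. Of the others, Olfml3 encodes a secreted glycoprotein of the olfactomedin family and Itga6 the alpha 6 subunit of laminin-binding integrins. Syngr1 encodes a synaptogyrin, a membrane protein of synaptic vesicles, and Lhfpl2 a small protein that spans the membrane several times. Abi3 encodes an Abl interactor that joins the WAVE complex of actin assembly, and Cyp4f18 a cytochrome P450 that hydroxylates leukotriene B4, a chemoattractant of neutrophils.

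In the mm10 annotation (GENCODE M21) all 7 genes are protein-coding. Tmem119 lies at chr5:113793729-113800516 on the minus strand, Olfml3 at chr3:103722222-103738001 on the minus strand and Abi3 at chr11:95830074-95842476 on the minus strand. Cyp4f18 lies at chr8:71988482-72009626 on the minus strand and Syngr1 at chr15:80091334-80119501 on the plus strand. Lhfpl2 lies at chr13:94057796-94195409 and Itga6 at chr2:71745616-71858416, both on the plus strand. Some counted genes overlap them on the opposite strand. These are Gngt2, Zfp652 and Phospho1 with Abi3, Zfp961 with Cyp4f18, Rpl3 with the 5' end of Syngr1 and the lincRNA Gm15907 with Lhfpl2. On the same strand, Gm13663 and Gm13662 overlap Itga6. No source used here gives the strand setting of the counting. Reads of Abi3 and Gngt2, for example, may therefore not be fully separable.

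The 250 bases upstream of the start were at hand for 4 of the genes (RefSeq, GRCm38.p6), and no sequence was matched for Tmem119, Abi3 and Itga6. The upstream sequences of Olfml3 and Cyp4f18 are shown because these genes had unlike patterns across the heart's leukocytes. They are written 5' to 3' on the minus strand, which is the strand of both genes, at chr3:103738002-103738251 and chr8:72009627-72009876. Capitals mark the only match to any of the 6 motifs searched.
Olfml3: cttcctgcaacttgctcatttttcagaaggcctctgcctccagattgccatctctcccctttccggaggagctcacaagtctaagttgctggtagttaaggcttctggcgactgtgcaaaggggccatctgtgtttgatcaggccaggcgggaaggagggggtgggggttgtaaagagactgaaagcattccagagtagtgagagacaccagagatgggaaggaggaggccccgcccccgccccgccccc
Cyp4f18: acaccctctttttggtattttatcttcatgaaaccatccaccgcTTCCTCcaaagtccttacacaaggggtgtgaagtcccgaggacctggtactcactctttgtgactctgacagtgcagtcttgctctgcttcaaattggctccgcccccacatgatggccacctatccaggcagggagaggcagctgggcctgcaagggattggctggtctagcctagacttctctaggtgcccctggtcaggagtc
The match is the reverse complement of GAGGAA, letters bound by PU.1, the factor that defines myeloid cells, and it starts at position -206 of Cyp4f18. These letters stand on either strand in 23.3% of 32851 promoters over the same window. The other motifs, searched on both strands, were CAGACA (SMAD, in 17.1% of promoters), CACGTG (E-box, 6.02%), TGCTGAC (MAF, 3.81%), TGANTCA (AP-1, 6.75%) and an IRF element (2.98%). None of them was found in the 4 upstream sequences, among them Syngr1 and Lhfpl2, which are 68.4% and 80.0% G and C.

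The control library had 7276 barcodes and 42640861 UMIs (unique molecular identifiers, each counted as 1 transcript molecule), and the LOY library 5475 barcodes and 18710715 UMIs. After filters 6904 control cells with a median of 5211.5 UMIs and 5180 LOY cells with a median of 3006 UMIs were kept, so the LOY cells were read less deeply. The 4 Y-linked genes Ddx3y, Eif2s3y, Kdm5d and Uty came to 124 CPM (UMIs per 1000000 UMIs of the same cells) in control cells and 14.0 CPM in the LOY library, which goes with the labels. The RFP sequence had 0 UMIs in both libraries, and 31 barcodes occur in both. Clustering without the 7 genes gave 20 clusters, of which 10 were macrophage-like by markers such as C1qa, Adgre1 and Csf1r. These 10 states are called by their 2 leading genes other than the 7. The macrophage-like class held 4540 control cells (65.8%) and 3290 LOY cells (63.5%), but different states filled it. In the control library Lilra5/H2-Eb1, Ccl24/Pla2g2d and Rgs1/Ccl4 held 1171, 1044 and 885 cells, and in the LOY library Spp1/Ctsd, Lyve1/Ltc4s and Rsad2/Ifit2 held 1435, 498 and 413 cells. Spp1/Ctsd had 49 control cells. The clusters Ly6c2/Ly6a (56 control and 869 LOY cells) and Retnla/Mmp12 (270 and 63) had macrophage markers, but more monocyte than macrophage markers among their leading genes, and stay unnamed. Abi3 and Cyp4f18 were among the 10 leading genes of Ly6c2/Ly6a. Syngr1, Olfml3 and Itga6 were among the 10 leading genes of Spp1/Ctsd, where Syngr1 stood ahead of Ctsd.

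Across the classes of leukocytes, most Tmem119 UMIs were in macrophage-like cells and in the Ly6c2/Ly6a cluster. Macrophage-like cells had 11.5 CPM of Tmem119 in the control library (344 UMIs) and 80.1 CPM in the LOY library (995 UMIs). Monocyte-like cells had 4.83 CPM in control cells (9 UMIs) and 22.0 CPM in LOY cells (14 UMIs). No UMI of Tmem119 was seen in B cell-like, T cell-like or neutrophil-like cells of either library, nor in control dendritic cells. For B cells, this is 0 of 818 control cells, which allows a share of cells with a UMI of up to 0.367%, and 0 of 237 LOY cells, which allows up to 1.27%. These limits hold for cells with a UMI, not for cells that express the gene, since a cell that expresses Tmem119 can show no UMI at such depths. The median depth of those B cells was 2054 and 864 UMIs, against 5759.5 and 3308 UMIs in macrophage-like cells. Tmem119 was thus not detectable in B and T cells at this depth. Fibroblast-like cells, 13 control and 10 LOY cells, also held Tmem119, at 34.0 CPM in the control (5 UMIs) and 48.5 CPM in the LOY library (3 UMIs). The control value stands above that of control macrophage-like cells, on few UMIs.

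**Figure D1:**
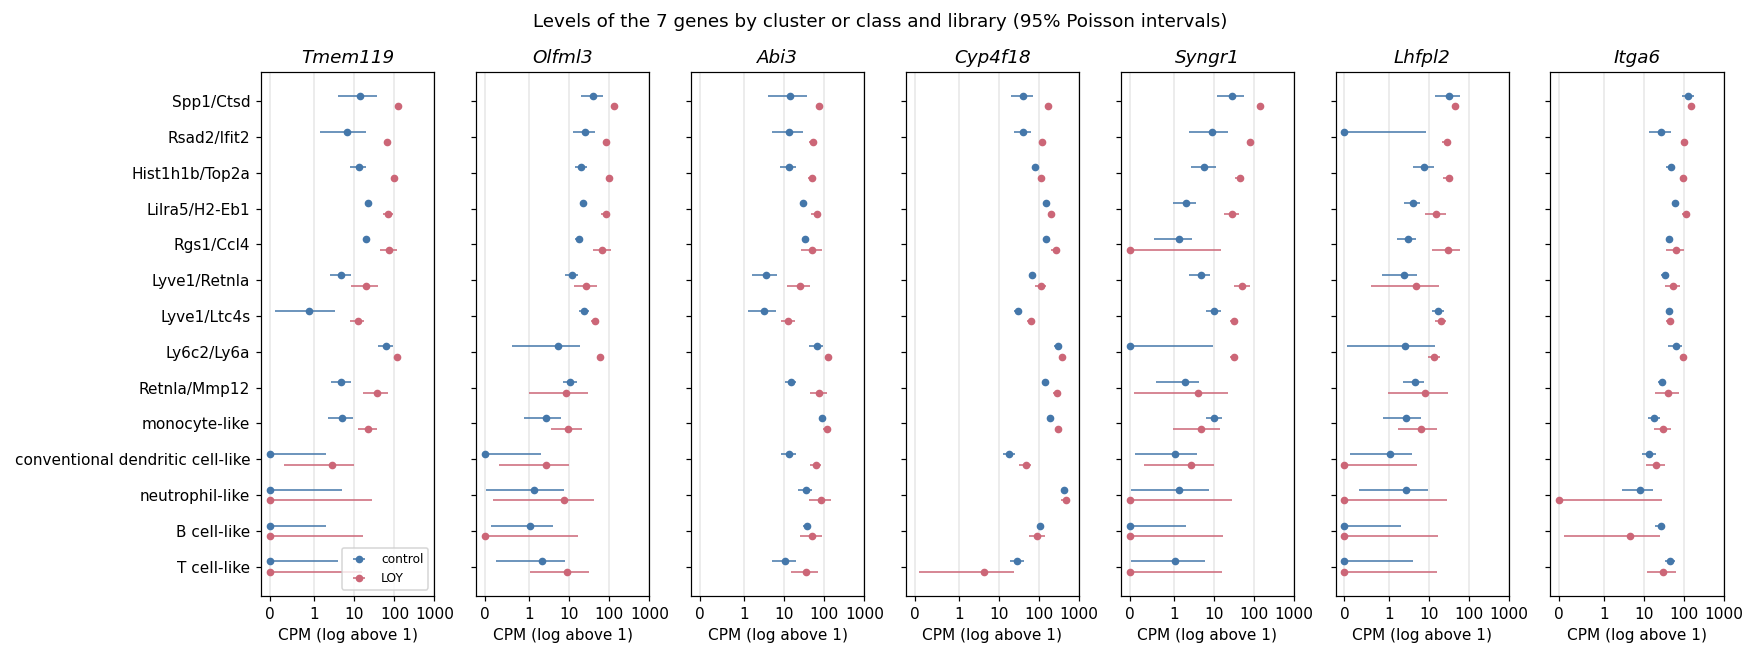
Level of each gene in CPM (linear from 0 to 1 and logarithmic above) in 7 macrophage-like states, 2 unnamed clusters and 5 other classes, with control in blue, LOY in red and exact 95% Poisson intervals that cover counting error only. Tmem119 is at 0 in B cell-like, T cell-like and neutrophil-like cells of both libraries, whereas Cyp4f18 is highest in neutrophil-like cells, at 423 CPM in control cells and 460 CPM in LOY cells.

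Olfml3 was also higher in macrophage-like than in monocyte-like cells. It had 16.9 CPM in macrophage-like cells of the control and 94.3 CPM in those of the LOY library, and 2.68 and 9.41 CPM in monocyte-like cells. In Ly6c2/Ly6a it had 5.14 CPM in control cells (2 UMIs) and 59.0 CPM in LOY cells, where Tmem119 had 61.7 and 118 CPM. In T cell-like and neutrophil-like cells, without a UMI of Tmem119, Olfml3 had 1 or 2 UMIs in each library. In the few fibroblast-like cells it stood at 197 CPM in control cells (29 UMIs) and 210 CPM in LOY cells (13 UMIs). Olfml3 is also known as a matrix protein of stromal cells. The 6 fibroblast markers (Col1a1, Col1a2, Col3a1, Dcn, Pdgfra, Lum) summed to 6.33 CPM in macrophage-like cells of the control and 5.07 CPM in those of the LOY library. Over the macrophage states these markers ranged from 4.27 to 42.2 CPM in the control, and from 3.79 to 7.07 CPM in the LOY library. The upper end in the control lay in the 49 Spp1/Ctsd cells, the state where control Olfml3 was also highest, at 38.7 CPM from 11 UMIs. In LOY Spp1/Ctsd cells, Olfml3 was at 131 CPM and the fibroblast markers at 5.12 CPM. The part of fibroblast RNA in the Olfml3 levels was not tested.

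Syngr1 and Lhfpl2 were low in most other classes. Syngr1 had 4.93 CPM in macrophage-like cells of the control and 82.3 CPM in those of the LOY library, and no UMI in B cells of either library. In control monocyte-like cells it had 10.2 CPM, above the control macrophage-like level, and all 19 UMIs came from 4 of 286 cells. Lhfpl2 had 4.79 and 31.7 CPM in macrophage-like cells and no UMI in B or T cells of either library. In the unnamed Ly6c2/Ly6a cluster of the LOY library, Syngr1 was at 31.9 CPM (86 UMIs) and Lhfpl2 at 13.7 CPM (37 UMIs).

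Abi3, Cyp4f18 and Itga6 were spread more widely. Abi3 was higher in monocyte-like cells (86.4 CPM in control cells and 118 CPM in LOY cells) than in macrophage-like cells (18.9 and 53.0 CPM). It was also present in B cells at 37.9 and 49.9 CPM. Cyp4f18 was highest in neutrophil-like cells, a class on which leukotriene B4 acts. The unnamed Ly6c2/Ly6a cluster followed at 290 and 381 CPM, then monocyte-like cells at 189 and 300 CPM. In the LOY library neutrophil-like and Ly6c2/Ly6a cells were not apart beyond counting error (1.21, 0.917 to 1.56). Macrophage-like cells had 101 and 134 CPM of Cyp4f18, close to control B cells at 105 CPM. Itga6 had 43.5 and 106 CPM in macrophage-like cells and 45.3 and 30.1 CPM in T cells. In the 17 control platelet-like cells, Itga6 reached 602 CPM from 11 UMIs, and integrin alpha 6 is a known laminin receptor of platelets.

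Among the macrophage-like states of the LOY library, Tmem119 was highest in Spp1/Ctsd, with 122 CPM in 1435 cells. This state is named for the matricellular protein Spp1 and the lysosomal protease Ctsd. The unnamed Ly6c2/Ly6a cluster stood at 118 CPM, and these neighbours did not differ beyond counting error (ratio 1.03, 95% interval 0.900 to 1.19). The cycling state Hist1h1b/Top2a followed at 96.1 CPM, then Rgs1/Ccl4 at 74.7, the MHC class II-rich Lilra5/H2-Eb1 at 69.4 and the interferon-led Rsad2/Ifit2 at 63.9 CPM. Among these 4 states no neighbouring pair was apart beyond counting error. Another interferon-led state, Cxcl10/Ifit2, held 286 control and 32 LOY cells, whereas Rsad2/Ifit2 held 52 and 413. The lowest LOY states with at least 50 cells were the Lyve1 states, with 19.4 CPM in Lyve1/Retnla and 12 CPM in Lyve1/Ltc4s. Tmem119 in Spp1/Ctsd was thus 10.2 times that in Lyve1/Ltc4s (interval 6.82 to 15.8).

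In the control library the levels were lower. Tmem119 was highest there in the 56 cells of Ly6c2/Ly6a, at 61.7 CPM from 24 UMIs. It stood at 22.1 CPM in Lilra5/H2-Eb1 and 20.0 CPM in Rgs1/Ccl4, a pair that did not differ beyond counting error. Lyve1/Ltc4s was again lowest, with 2 UMIs (0.885 CPM). In the 49 control cells of Spp1/Ctsd, Tmem119 was at 14.1 CPM from 4 UMIs, with an interval of 3.83 to 36.0 CPM. In the LOY library Spp1/Ctsd and Ly6c2/Ly6a were thus the highest and not apart. In the control Ly6c2/Ly6a stood above Spp1/Ctsd (4.39, 1.51 to 17.4), from 24 and 4 UMIs. Control Ly6c2/Ly6a also stood above Lilra5/H2-Eb1 (2.79, 1.72 to 4.34), and this pair had the same order in the LOY library (118 and 69.4 CPM).

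The other genes divided the states differently. Syngr1 in the LOY library was at 138 CPM in Spp1/Ctsd, 80.6 CPM in Rsad2/Ifit2, 43.3 CPM in the cycling state and 27.8 CPM in Lilra5/H2-Eb1. Its level in Spp1/Ctsd was 4.96 times that in Lilra5/H2-Eb1 (3.25 to 7.97), while for Tmem119 the same ratio was 1.76 (1.33 to 2.37). Lhfpl2 showed 45.2 CPM in Spp1/Ctsd and 15.1 CPM in Lilra5/H2-Eb1. Cyp4f18 went the other way, with 163 CPM in Spp1/Ctsd and 202 CPM in Lilra5/H2-Eb1 (ratio 0.805, 0.678 to 0.960). In the unnamed Ly6c2/Ly6a cluster Cyp4f18 reached 381 CPM and Abi3 126 CPM, which were 2.34 and 1.72 times their levels in Spp1/Ctsd. Syngr1, Lhfpl2 and Olfml3 were lower in Ly6c2/Ly6a than in Spp1/Ctsd, at 0.232, 0.303 and 0.450 times the level. Tmem119 is the only one of the 7 whose interval for this pair held 1 (0.968, 0.842 to 1.11). Against the monocyte-like class of the LOY library, Ly6c2/Ly6a had 5.39 times the Tmem119 (3.16 to 9.97) while for Abi3 the interval held 1 (1.07, 0.830 to 1.39). In the control the Tmem119 ratio was 12.8 (5.73 to 31.2) and that of Abi3 0.743 (0.467 to 1.14).

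Spp1/Ctsd gave the largest share of the LOY macrophage-like UMIs of each gene. Its share of the UMIs was 65.9% for Syngr1, 60.0% for Tmem119, 56.1% for Lhfpl2, 54.7% for Olfml3 and Itga6, 54.3% for Abi3 and 47.9% for Cyp4f18. The state held 43.6% of the LOY macrophage-like cells. In the control library the largest shares of Tmem119 UMIs came from Lilra5/H2-Eb1 (36.3%) and Rgs1/Ccl4 (29.9%).

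Between the libraries, macrophage-like cells of the LOY library had higher levels of all 7 genes. In the values given above for these cells, Tmem119 was 6.95 times higher (95% interval 6.14 to 7.88, counting error only), Olfml3 5.57 times (5.02 to 6.20) and Lhfpl2 6.62 times (5.46 to 8.08). Syngr1 had the largest ratio of the 7, 16.7 (14.0 to 20.0). Abi3 was 2.81 times higher (2.51 to 3.15) and Itga6 2.44 times (2.26 to 2.64). Cyp4f18 differed least, at 1.32 times (1.24 to 1.40). UMIs of 1 cell are not independent, so these intervals are narrower than the spread between cells, and they say nothing of the spread between mice. On the scale log2((LOY CPM + 10)/(control CPM + 10)), where low genes appear closer to 0 than their ratios, the values were 2.07 for Tmem119, 1.95 for Olfml3, 1.13 for Abi3, 0.37 for Cyp4f18, 2.63 for Syngr1, 1.5 for Lhfpl2 and 1.12 for Itga6. On that scale 6 of the 7 were over 1.5-fold higher and Cyp4f18 was within 1.5-fold. Of the 7864 genes with at least 10 CPM in either library, 7.17% were over 1.5-fold higher and 7.87% were lower by as much. The median was -0.0022 over all of them and 1.5 over the 7 genes. With no filter on low genes, 3.18% of 18059 genes were over 1.5-fold higher. Over all kept cells, 7 of the 7 genes were over 1.5-fold higher, where 5.85% of genes tested were higher and 9.08% lower. The genes were chosen with this contrast known, so nothing is read from their count.

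Other features of the class moved with this contrast, and their part in it was not tested. The 10 macrophage markers summed to 49721 CPM in control cells and 69779 CPM in LOY cells, and the 4 MHC class II genes to 46848 and 6924 CPM. The 6 lipid-associated markers, among them Spp1 and Trem2, came to 1822 and 3579 CPM. The 6 cardiomyocyte markers, RNA that sorted leukocytes should not make, came to 89.4 and 109 CPM. Without the Spp1/Ctsd cells the log2 value of Tmem119 was 1.55 in place of 2.07 and that of Syngr1 1.94 in place of 2.63. The values of the other genes were lower too.

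Inside single clusters the difference between libraries had the same direction for nearly all values. In Lilra5/H2-Eb1, the largest control state, Tmem119 was at 22.1 CPM in control cells and 69.4 CPM in LOY cells (ratio 3.13, 2.24 to 4.34). Olfml3 there was at 22.1 and 80.8 CPM (3.65, 2.66 to 4.97), and Syngr1 at 1.95 and 27.8 CPM (14.2, 6.62 to 32.5). In the cycling state, Tmem119 was at 12.8 and 96.1 CPM (7.48, 4.68 to 12.6). In Lyve1/Ltc4s, where Tmem119 was lowest, it was at 0.885 and 12 CPM (13.6, 3.39 to 118), from 2 control and 25 LOY UMIs. So the low states too held more Tmem119 in the LOY library. Cells of 1 cluster also differed in other genes between the libraries. In Lilra5/H2-Eb1 the MHC class II genes summed to 72594 CPM in control cells and 40039 CPM in LOY cells. The macrophage markers there summed to 47914 and 67102 CPM. In Lyve1/Ltc4s the MHC class II genes were closer, at 1247 and 1055 CPM. The part of such differences was not tested.

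Over the 8 clusters with at least 50 cells in each library, 6 macrophage-like and 2 unnamed, the interval of the ratio lay above 1 in 8 for Tmem119 and Cyp4f18. It lay above 1 in 7 for Olfml3 and Abi3, in 6 for Syngr1 and in 4 for Lhfpl2 and Itga6. It lay below 1 in 0 of the 8 for each of the genes. The exceptions in direction were Olfml3 in Retnla/Mmp12, with 10.6 CPM in control cells and 8.13 CPM in LOY cells from 2 LOY UMIs (0.766, 0.0885 to 3.03), and Syngr1 in Rgs1/Ccl4, with 7 UMIs in control cells and 0 in LOY cells. That 0 allows a level of up to 12.5 CPM, so the pair cannot be ordered at this depth. The Syngr1 ratio in Lyve1/Retnla, 11.0 (5.15 to 24.4), rests on 21 LOY UMIs that came from 3 of 114 cells. Itga6 in Lyve1/Ltc4s was alike in both libraries, with 43.3 and 44.2 CPM (1.02, 0.760 to 1.37).

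**Figure D2:**
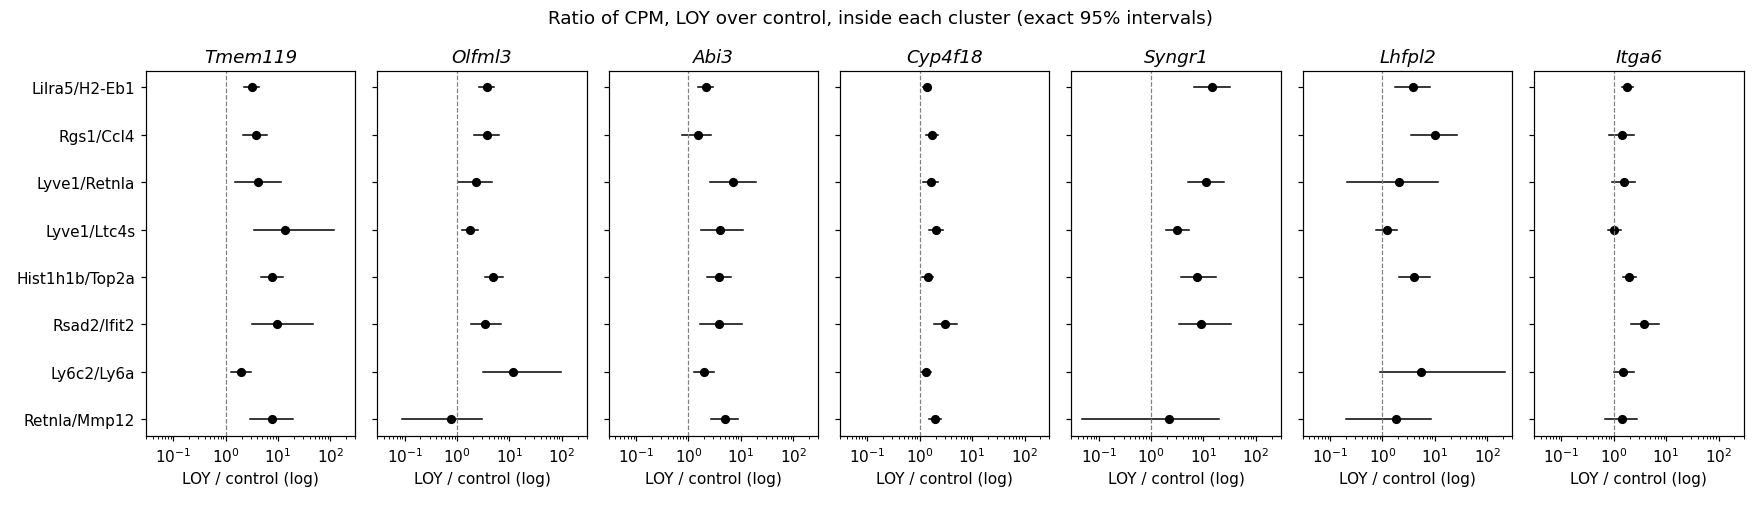
Ratio of CPM in the LOY to the control library (logarithmic axis) inside each of 8 clusters, with exact 95% intervals that cover counting error only and a dashed line at 1. Pairs with 0 UMIs in a library have no point. All 8 Tmem119 intervals lie right of the line, while Itga6 in Lyve1/Ltc4s sits on it at 1.02.

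The number of genes over 1.5-fold higher was 6 of 7 tested in Lilra5/H2-Eb1 and in the cycling state, where 6.58% and 6.60% of all tested genes were. It was 7 of 7 in Rsad2/Ifit2 (10.7% of all tested genes), 5 of 7 in Lyve1/Ltc4s (4.86%), 5 of 6 in Lyve1/Retnla (8.43%) and 4 of 6 in Rgs1/Ccl4 (14.1%). It was 5 of 7 in Ly6c2/Ly6a (8.70%), 3 of 5 in Retnla/Mmp12 (11.0%) and 2 of 5 in monocyte-like cells (6.57%), where the pair was Tmem119 and Cyp4f18. None was over 1.5-fold lower in these 9 groups of cells. The share of all tested genes that were lower, in the order just given, was 9.52%, 11.9%, 16.7%, 9.86%, 15.7%, 15.6%, 16.6%, 22.5% and 14.4%. The Rsad2/Ifit2 count rests on 52 control cells, with 3 UMIs of Tmem119, 4 of Syngr1 and 0 of Lhfpl2. The Tmem119 ratio there was 9.57 (3.21 to 47.0). In conventional dendritic cells 2 of 3 tested, Abi3 and Cyp4f18, were higher (8.10% of genes higher, 16.4% lower), and in neutrophils 1 of 2, Abi3 (16.9% higher, 23.9% lower). In B cells 0 of 3 were higher and Itga6 was lower, from 49 control UMIs and 1 LOY UMI (9.43% of genes higher, 22.4% lower). In T cells Abi3 was higher and Cyp4f18 lower, from 8 and 1 LOY UMIs (20.2% higher, 17.8% lower).

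Weighting the states alike held their mix fixed over the 6 states that both libraries fill with at least 50 cells. Differences between the libraries inside a state were not held fixed. Left out were Spp1/Ctsd, with 43.6% of LOY macrophage-like cells, and Ccl24/Pla2g2d, with 23.0% of control ones. The smaller Cxcl10/Ifit2 and Id3/Cxcl2 were left out too. These ratios are therefore not those of the whole class, which were 6.95 for Tmem119 and 1.32 for Cyp4f18. For Tmem119 the ratio of LOY to control was 3.63 as found in those states, 3.90 with the control's weights and 6.49 with the LOY weights. For Syngr1 it was 12.9 as found, 7.03 and 6.57. For Cyp4f18 it was 1.01 as found, and 1.57 and 1.82 with the weights held fixed. Olfml3 stayed between 3.21 and 3.66, Abi3 between 1.83 and 3.23, Lhfpl2 between 3.27 and 4.47 and Itga6 between 1.64 and 1.97. The ratio of Cyp4f18 was therefore larger with the weights held fixed than over the sum of these 6 states.

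In single cells, a UMI of Tmem119 was found in 5.62% of control and 18.7% of LOY macrophage-like cells. The LOY cells were shallower, so each cell was also thinned to 1000 UMIs, which left out 29 control and 70 LOY cells. Thinned, the shares were 1.44% and 7.39% for Tmem119, 1.64% and 8.51% for Olfml3 and 0.310% and 6.74% for Syngr1. They were 1.77% and 5.03% for Abi3, 0.532% and 2.95% for Lhfpl2 and 4.39% and 8.98% for Itga6. Unthinned, these were 8.11% and 24.8% for Olfml3, 2.58% and 17.7% for Syngr1, 10.8% and 16.8% for Abi3, 2.44% and 10.1% for Lhfpl2 and 21.1% and 28.8% for Itga6. For Cyp4f18 the unthinned shares, 38.2% and 30.4%, ran against its CPM, whereas the thinned shares, 9.78% and 11.6%, did not, so the unthinned order is not read.

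Among cells thinned to 2000 UMIs (4432 control and 2802 LOY cells, with 108 and 488 left out), those with Tmem119 also held more of it in the LOY library. Of the Tmem119-positive cells, 10 of 116 in the control (8.62%) and 80 of 354 in the LOY library (22.6%) had at least 2 of its UMIs. For Syngr1, a vesicle protein in neurons, 0 of 34 control and 68 of 342 LOY positive cells (19.9%) did. For Abi3 it was 4 of 167 and 24 of 297 cells (2.40% and 8.08%). Lhfpl2 was the exception, with 4 of 41 control cells (9.76%) and 12 of 168 LOY cells (7.14%).

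Pairs of the genes met in the same LOY cell more often than the product of their shares in most cases. In thinned LOY macrophage-like cells, Tmem119 and Olfml3 were both found in 112 cells, where the product of their shares gives 61.1 cells, a ratio of 1.83. In the control they were both found in 11 cells, against 3.74 from the product (2.94). Tmem119 in LOY cells met Lhfpl2 in 35 cells (21.2 from the product), Abi3 in 57 (37.5), Cyp4f18 in 116 (76.4), Syngr1 in 62 (43.2) and Itga6 in 75 (64.1). Of the 21 pairs, 17 lay above the product in the LOY library, 10 of them with an exact interval of the shared cells above it, and 14 lay above in the control, 5 with the interval above. No pair had an interval below the product. With cells thinned to 1000 UMIs, 14 LOY pairs lay above, only 4 of them with the interval above, and 12 control pairs, 1 with the interval above. The 4 were Tmem119 with Olfml3 and with Cyp4f18, Olfml3 with Syngr1, and Abi3 with Cyp4f18. Some LOY pairs turned to below the product at that depth, such as Olfml3 with Abi3 (1.42 to 0.870) and with Itga6 (1.31 to 0.895), Olfml3 with Lhfpl2 (1.21 to 0.495) and Syngr1 with Itga6 (1.47 to 0.976). Abi3 with Syngr1 and Syngr1 with Lhfpl2 turned too. At 2000 UMIs the LOY pairs below it were Abi3 with Lhfpl2 (14 cells, 17.8 from the product) and Lhfpl2 with Itga6 (27, 30.4). Cyp4f18 with Syngr1 (69, 73.8) and with Lhfpl2 (32, 36.3) lay below it too. At 1000 UMIs Lhfpl2 with Itga6 (1.64) and Cyp4f18 with Syngr1 (1.03) and with Lhfpl2 (1.09) lay above it. Abi3 with Lhfpl2 stayed below (0.837). All 6 LOY pairs with Tmem119 lay above the product at both depths. In control cells thinned to 2000 UMIs, Tmem119 met neither Syngr1 nor Lhfpl2, where the product gives 0.890 and 1.07 cells. At 1000 UMIs it met Lhfpl2 in 1 control cell, where the product gives 0.346.

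**Figure D3:**
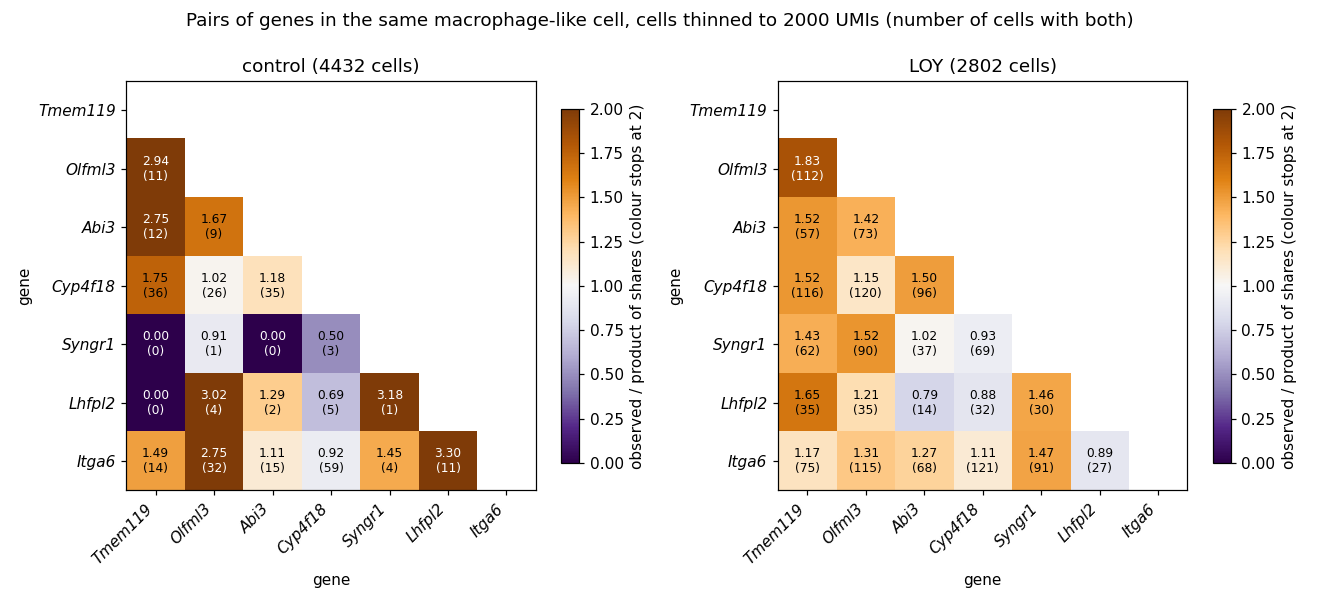
Cells that hold a UMI of both genes, divided by the number that the product of the single shares gives, for the 21 pairs in macrophage-like cells thinned to 2000 UMIs, with the number of such cells in brackets. Colour stops at 2. In the LOY library Tmem119 with Olfml3 is the highest pair at 1.83 (112 cells), and several control pairs rest on fewer than 5 cells.

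At least 3 of the 7 genes were found in 243 thinned LOY cells (8.67%, where the product gives 6.05%) and in 31 control cells (0.699%, where it gives 0.268%). At least 1 was found in 60.2% of LOY and 31.8% of control cells. Cells of unlike states are mixed in these counts, so the pairs were also counted inside the largest LOY state. In 1232 thinned Spp1/Ctsd cells, 14 of 21 pairs lay above the product, 4 with the interval above it, with a median ratio of 1.12 in place of 1.31 over the whole class. Tmem119 with Olfml3 was still the highest pair there, with 78 cells against 52.9 (1.47). In 755 Ly6c2/Ly6a cells, 13 of 21 pairs lay above, 2 with the interval, with a median of 1.11.

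The share of cells with Tmem119 differed with other macrophage genes. In thinned LOY macrophage-like cells, Tmem119 was found in 1.92% of 468 Lyve1-positive cells and in 14.8% of the 2334 without Lyve1. Lyve1 and Folr2 are known from resident heart macrophages, but by the labels all cells sorted here came from the graft, so they mark no origin. For Folr2 the shares were 5.94% and 17.5%. None of 32 Timd4-positive cells had Tmem119, too few to set a level. With Ccr2, the chemokine receptor of recruited monocytes, the order was turned, with 20.0% of 669 Ccr2-positive and 10.3% of Ccr2-negative cells. Ly6c2 gave 23.8% of 84 positive cells and 12.3% of the others, and Cx3cr1 gave 16.2% and 8.30%. In the control the same markers gave 0.524% and 3.19% for Lyve1, 0.749% and 4.16% for Folr2, 3.83% and 2.07% for Ccr2 and 4.32% and 1.42% for Cx3cr1. Tmem119 was thus more often seen in Ccr2-positive and Lyve1-negative cells in both libraries.

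Syngr1 was more frequent with each of the 3 lipid-associated markers counted, Gpnmb, Spp1 and Trem2. In LOY cells it was found in 38.2% of 102 cells with Gpnmb, a glycoprotein of lysosome-rich macrophages, and in 11.2% of the others. With Spp1 the shares were 25.2% and 8.46%, with Trem2 13.6% and 5.53%, and with the MHC class II gene H2-Eb1 4.75% and 15.1%. Syngr1 shares were 10.5% and 12.7% with Ccr2, 5.56% and 13.5% with Lyve1 and 13.1% and 11.6% with Folr2. For Tmem119 the shares were 10.8% and 12.7% with Gpnmb, 17.9% and 11.1% with Spp1 and 13.4% and 8.72% with Trem2, so Tmem119 too was more frequent with Spp1 and Trem2. Olfml3 was found in 25% of Spp1-positive and 15.0% of Spp1-negative cells. Cyp4f18 was found in 44.0% of Ly6c2-positive cells and 20.9% of the others. For Tnnt2, a transcript of cardiomyocytes, Tmem119 was found in 16% of 187 positive and 12.4% of negative LOY cells, and Cyp4f18 in 14.4% and 22.1%. The 6 cardiomyocyte markers, given above for macrophage-like cells, summed to 5.91 and 6.27 CPM in monocyte-like cells and reached 175 CPM in LOY Spp1/Ctsd cells. The source of this RNA and its part in these shares were not tested.

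Within the LOY library alone, 149 macrophage-like cells had a UMI of a Y-linked gene and 3141 had none. Tmem119 was at 47.8 CPM in the cells with a Y-linked UMI and 82.2 CPM in those without (ratio 0.581, 0.404 to 0.810). Syngr1 was the other way round, at 117 and 80.1 CPM (1.46, 1.16 to 1.82). The other 5 genes had ratios between 0.792 and 1.14 with intervals that held 1. The cells with a Y-linked UMI were deeper, with a median of 4380 against 3255 UMIs, and fewer of them were Spp1/Ctsd cells (28.9% against 44.3%), and the part of both was not tested. Inside Spp1/Ctsd, with 43 cells that had a Y-linked UMI, Tmem119 was at 83.1 and 124 CPM (0.671, 0.388 to 1.08) and Syngr1 at 210 and 135 CPM (1.56, 1.12 to 2.13). The Tmem119 interval thus held 1 within the state, while that of Syngr1 did not. Cyp4f18 was lower there in the cells with a Y-linked UMI (103 and 165 CPM, 0.622, 0.383 to 0.957). In Rsad2/Ifit2, with 29 such cells, Tmem119 was at 87.9 and 61.4 CPM (1.43, 0.806 to 2.39), and Abi3 was higher, at 98.2 and 46.2 CPM (2.13, 1.22 to 3.52). In Lyve1/Ltc4s, also with 29 such cells, Cyp4f18 was higher, at 117 and 57.1 CPM (2.05, 1.13 to 3.48). Both Tmem119 intervals held 1, and the differences between states were not tested. A cell without a Y-linked UMI is not shown to lack the chromosome, since few UMIs of these genes fall in any cell.

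**Figure D4:**
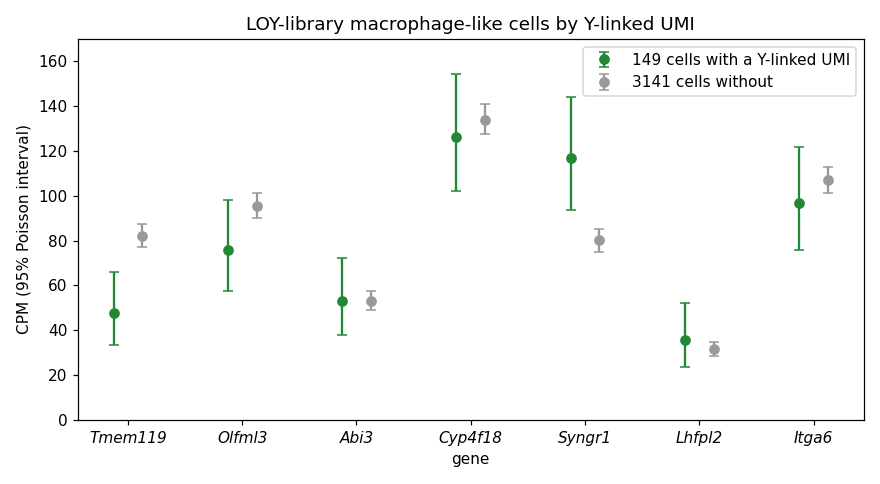
CPM of each gene in macrophage-like cells of the LOY library with (green, 149 cells) and without (grey, 3141 cells) a UMI of Ddx3y, Eif2s3y, Kdm5d or Uty, with exact 95% Poisson intervals that cover counting error only. Tmem119 is lower and Syngr1 higher in the cells with a Y-linked UMI, and the other 5 pairs of intervals overlap.

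Levels over 31 class or state units of both libraries gave 2 groupings by Pearson's r of log2(CPM + 10). The groupings are given as a description because units share libraries and depth. The genes were also chosen with the contrast between the libraries known, and that contrast enters each r because units of both libraries are pooled. Its part in the groupings and in the likeness to other genes was not tested. Olfml3 and Lhfpl2 were most alike (0.88), then Tmem119 with Olfml3 and with Itga6 (both 0.81) and Olfml3 with Itga6 (0.80). Abi3 and Cyp4f18 were alike (0.67), and Itga6 was unlike both of them (0.10). Tmem119 was nearer to the first grouping, with 0.77 for Lhfpl2 and 0.61 for Syngr1, than to Abi3 (0.53) and Cyp4f18 (0.51). Syngr1 was also nearer to Olfml3 (0.78) and Lhfpl2 (0.75) than to Abi3 (0.17) and Cyp4f18 (0.10). The non-member genes most like Tmem119 among 5468 compared were Dtx4 (0.86), a ubiquitin ligase of the Deltex family, Mmp14 (0.85), a membrane-bound matrix protease, Tcirg1 (0.82), a subunit of the lysosomal proton pump, Gdf3 (0.80), a ligand of the TGF-beta superfamily, and Tmem273 (0.79). Those most like Olfml3 were Cacna1d, Tmem273 and Dtx4 (0.88, 0.88 and 0.87), and those most like Lhfpl2 were Dtx4, Pmepa1 and Nt5dc2 (0.82, 0.80 and 0.79). Dhrs7b, Cdk6 and Igsf8 were most like Itga6 (0.87, 0.84 and 0.84), and Vav1, Ap2s1 and Slc25a39 most like Syngr1 (0.81, 0.79 and 0.79). Ptpn6, Gngt2 and Dok3 were most like Cyp4f18 (0.82 for each), and Gngt2, Cd52 and Treml2 most like Abi3 (0.89, 0.80 and 0.74). Gngt2 overlaps Abi3 on the opposite strand, and it stood at 117 CPM in macrophage-like cells of the control and 231 CPM in those of the LOY library (1.97, 1.88 to 2.08). Rpl3, which overlaps the start of Syngr1, was lower in the LOY library (1718 and 1245 CPM), unlike Syngr1, and Zfp961 beside Cyp4f18 was at 5.50 and 3.46 CPM.

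Most genes restricted to microglia were at or near 0 in these cells. Sall1 and Sall3, transcription factors of microglial identity, had 0 UMIs in macrophage-like cells of both libraries, which allows up to 0.101 CPM in control cells and 0.242 CPM in LOY cells. Slc2a5, a fructose transporter, had 0 UMIs in the control and 1 UMI in the LOY library, and Siglech had 2.48 and 0.564 CPM. Crybb1 had 0.536 and 3.78 CPM from 16 and 47 UMIs. P2ry12, the purinergic receptor of resting microglia, had 52.2 CPM in control cells and 46.2 CPM in LOY cells, on the same side of 1.5-fold as most genes. So Tmem119 was read in macrophage-like cells whose levels of Sall1 and Sall3 were below detection.

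A list of 55 other genes known from resting microglia was read in the same cells. Of its 40 genes tested, 5 were over 1.5-fold higher in LOY macrophage-like cells (Fcrls, Trem2, Sox4, Golm1 and Cx3cr1), 3 over 1.5-fold lower (Hpgd, Plxdc2 and Pros1) and 32 within, with a median of -0.016. Over all genes tested, 7.17% were higher and 7.87% lower, so neither count is read as a result about the list, and no contrast with the 7 genes is drawn because they were chosen on these values. Fcrls, an Fc receptor-like protein, was at 299 CPM in control cells and 893 CPM in LOY cells, and Trem2, a lipid-sensing receptor, at 503 and 1337 CPM. Trem2 is also among the lipid-associated markers. Sox4 was at 1.37 and 11.7 CPM. Hpgd, which inactivates prostaglandins, was at 259 and 102 CPM, Plxdc2 at 29.9 and 11.1 CPM and Pros1, a bridging protein for uptake of dead cells, at 56.5 and 29.6 CPM. Sall1, Sall3 and Upk1b were at 0 in both libraries. Of 14 genes of TGF-beta signalling 12 were tested, 2 of them over 1.5-fold higher, 0 lower and 10 within. The shares over all genes tested were again 7.17% and 7.87%, and nothing is read from this count. The 2 higher genes were Pmepa1, which TGF-beta induces and which restrains the pathway (60.1 and 263 CPM), and Itgav (33.8 and 58.5 CPM). Itgav is a subunit of integrins that activate TGF-beta. Pmepa1 was also among the 10 leading genes of Spp1/Ctsd. Smad7 was at 17.2 and 24.1 CPM and Skil at 125 and 131 CPM, both within 1.5-fold. The receptors Tgfbr1 and Tgfbr2 were at 102 and 116 CPM and at 237 and 176 CPM, and the mediator Smad3 at 11.7 and 9.18 CPM.

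**Figure D5:**
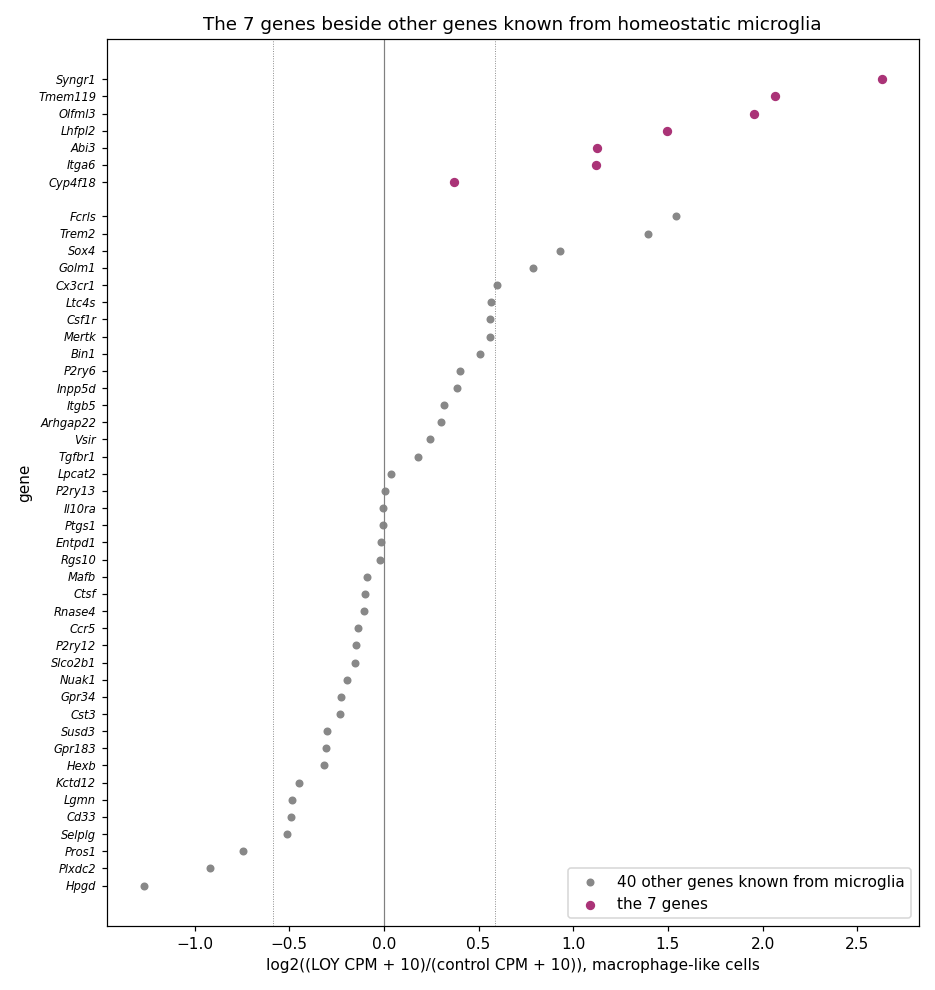
log2((LOY CPM + 10)/(control CPM + 10)) in macrophage-like cells for the 7 genes (purple, top) and 40 other genes known from resting microglia (grey), 1 point per gene, with dotted lines at 1.5-fold. The 7 genes, which were chosen with these values known, lie between 0.37 and 2.63. The 40 others lie on both sides of 0 with a median of -0.016, and the figure makes no test of 1 set against the other.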

How the data were processed

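Cells of left ventricles were read with a 10x Genomics 3' kit, about 8000 cells loaded per library, per the labels' protocols. The authors deposited raw counts, 1 per UMI, for every gene in every barcode, made with Cell Ranger 5.0.0 on mm10, per the submitters' processing notes. The annotation release is not given in the sources used here.

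Barcodes were kept from 500 UMIs and 200 genes upward if no more than 10% of UMIs were mitochondrial. Scrublet removed 88 control barcodes at its automatic threshold. It marked 0 in the LOY library, so the 235 barcodes with the top scores, 0.8% for every 1000 barcodes, were taken out. Counts were scaled to 10000 per cell, log-transformed and clustered jointly (scanpy 1.11.5, Python 3.11.15; 2000 variable genes, leaving out the 7 genes and those of the Y chromosome, Xist, mitochondria, ribosomal proteins, haemoglobin and antigen receptors; 30 principal components, 15 neighbours, Leiden resolution 1). A marker counted when 25% of a cluster's cells held it, and the cluster took the type, of 19, with the highest share of markers counted. It stayed unnamed when under 3 were seen or its top 10 genes held more markers of another type. Limiting those top genes to ones seen in 25% of the cells was chosen after the data were seen.

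UMIs were summed by cluster and library. Intervals are exact at 95% (Poisson, conditional ratio, Clopper-Pearson) and cover counting error only, and a count of 0 is given the limit of 3 counts. The interval code was tested on simulated data. No test was made, because each group is 1 library. The members and lists were chosen with earlier results of these data known. Genes named are the 7, markers, the 5 genes most like Tmem119 and 3 most like each other gene, the 3 highest and 3 lowest and those at 0 of the microglia list, its restricted genes, the TGF-beta list and overlapping genes. Golm1 and Cx3cr1 fall outside this rule and were named after their values were seen. Alternatives covered cell filters, doublets, clustering, pseudocount, scaling, thinning and the choice of cells.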

Additional observations from a re-analysis of the deposited data

Results flagged for a closer look

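The ratio of Cyp4f18 in the LOY to the control library differed in direction between classes of leukocytes. It was 1.32 in macrophage-like, 1.59 in monocyte-like and 2.58 in conventional dendritic cell-like cells, and 0.151 in T cell-like cells. The T cell value rests on 1 LOY UMI in 104 cells and 27 control UMIs from 9 of 238 cells (interval 0.0037 to 0.919). The difference between the classes was not tested.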

How the results depend on the processing

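With 1 library per group, nothing below measures the spread between mice, and depth limits Syngr1 and Lhfpl2 most in the small clusters. The log2 ratio of Tmem119 in macrophage-like cells, 2.07 as reported, was 2.70 with a pseudocount of 1 CPM, 1.08 with 50 CPM, 1.90 with each cell thinned to 1000 UMIs and 1.55 without the Spp1/Ctsd cluster. With thinning, the control level of Tmem119 was 15.1 CPM in place of 11.5. The number of genes over 1.5-fold higher, 6 as reported, ranged from 4 with a pseudocount of 50 CPM to 7 with a gate on single cells or with the Ly6c2/Ly6a cluster added. The share of all genes over 1.5-fold higher is not given for those settings, so nothing is read from the range. No ratio of the 7 genes changed direction in the 14 alternatives run on each. Over those, Cyp4f18 ranged from 0.16 to 0.73, so its side of 1.5-fold depends on which cells are counted, and Syngr1 from 1.27 to 3.81. With cells thinned to 1000 in place of 2000 UMIs, pairs of genes with the interval above the product fell from 10 to 4 in the LOY and from 5 to 1 in the control library. Leaving out the Spp1/Ctsd cluster and adding Ly6c2/Ly6a were chosen after the data were seen. No paired analysis was possible because each group is 1 library.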
